A study of Mus musculus with 35 samples.

Results

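The galectin genes Lgals1, Lgals3, Lgals8 and Lgals9 and the gene of a galectin-binding protein, Lgals3bp, were followed in podocytes sorted from mice with mutations in the LIM domains of Lmx1b. They are 5 of the 33292 gene rows of the expression table and were found by matching their symbols to the Ensembl identifiers of the rows. The genes were chosen by their higher TPM in the knock-in lines than in controls under the solvent DMSO, with results of these mice in view. Their values in those 2 comparisons are therefore described without a test. The libraries came from 35 mice in 6 groups. Control mice carried Lmx1b+/lox (labelled WT), and the knock-in lines carried Lmx1b H77L/lox, with the mutation in the LIM-A domain, or Lmx1b C118F/lox, with the mutation in the LIM-B domain. The control group and the H77L group held 6 mice each under DMSO and 6 each under bortezomib (Btz), and the C118F group held 6 under DMSO and 5 under bortezomib.

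What the groups shared limits them as models. Every mouse, controls included, carried the lox allele together with a podocyte-specific rtTA cassette, tetO::Cre and the mT/mG reporter, received doxycycline at 2 mg/ml for 7 days and was injected with bortezomib at 0.3 µg per g body weight or with DMSO. These cassettes restricted Cre, and so the loss of the lox allele, to podocytes. The knock-in allele was present in every cell of its line. The mice were 7 to 10 weeks old, and each mouse was its own library of RNA from green podocytes collected by fluorescence-activated cell sorting.

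Galectins are lectins that bind sugar chains ending in galactose, in particular the N-acetyllactosamine units of branched glycans on membrane and matrix proteins. They are made in the cytosol and leave the cell by a route other than the classical secretory pathway. Galectin-1, from Lgals1, forms dimers that cross-link glycoproteins, whereas galectin-3, from Lgals3, carries a flexible tail through which it assembles into larger lattices. Galectin-8 and galectin-9, from Lgals8 and Lgals9, join a pair of different sugar-binding domains in one chain. Galectin-3 and galectin-8 also bind glycans exposed inside damaged endosomes and lysosomes. Lgals3bp is no galectin but a secreted glycoprotein that binds galectin-3. In the kidney galectin-3 is best known from collecting duct cells and macrophages. Podocytes are the epithelial cells that cover the glomerular capillaries, and Lmx1b is one of the transcription factors that maintain them.

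Values are TPM, reads per gene divided by gene length and scaled to a sum of 1000000 per mouse, so levels can be compared between genes. Estimated reads per mouse ranged from 5258750 in a bortezomib-treated C118F mouse to 24110814, with a median of 19131446. Of the members, Lgals1 was covered by 293 to 9901 reads per mouse, Lgals3 by 0 to 9278, Lgals8 by 313 to 2019, Lgals9 by 69 to 2059 and Lgals3bp by 97 to 1926. The sorted cells carried the defining podocyte transcripts in every group, but most of them at lower levels in the knock-in lines. The summed TPM of 11 podocyte markers was 14502 to 20652 over the control mice of both treatments and 2563 to 7826 over the knock-in mice. This sum follows the abundant markers, and the fall was uneven. Medians of control, H77L and C118F mice under DMSO were 4970, 240 and 222 TPM for Cdkn1c. They were 210, 167 and 157 TPM for Nphs1, and 82.8, 76.6 and 69.2 TPM for Plce1. In such bulk samples, fewer cells of a type and less RNA per cell cannot be told apart. Markers of other cells stood out in 3 control mice and in 3 knock-in mice. Macrophage and leukocyte markers summed to 560 TPM in control replicate 1 under DMSO, against 98.4 in the next mouse of that group. Collecting duct markers summed to 155 TPM in control replicate 2 under DMSO and to 167 in control replicate 2 under bortezomib. Tubule markers summed to 1367 and 373 TPM in the same mice, against 233 and 94.5 TPM in the next mouse of each group. Among DMSO-treated knock-in mice, tubule markers summed to 384 TPM and collecting duct markers to 57.7 TPM in H77L replicate 5, and to 151 and 44.2 TPM in C118F replicate 4. Endothelial markers summed to 181 TPM in C118F replicate 1, whose mesangial markers were also raised. Fold changes below are on the log2(TPM + 1) scale with their standard error, and "called" means an adjusted p under 0.05 over all genes tested. All 5 genes passed the filter of more than 1 TPM in every mouse of at least 1 group compared whenever knock-in mice took part. Lgals3 passed it in comparisons with controls only through the knock-in group, so its rise there was bound to the filter, whereas the other 4 were above 1 TPM in every mouse.

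In control podocytes under DMSO the family was led by Lgals1 and Lgalsl, the gene of a galectin-related protein that lacks lectin activity, with medians of 104 and 100 TPM and overlapping ranges. Lgals8 followed at a median of 50.5 TPM without overlap with Lgalsl. Lgals9 with 18.8 TPM and Lgals3bp with 14.3 TPM came next and overlapped each other. Lgals2 and Lgals3 were low, with medians of 6.78 and 5.38 TPM. Lgals4, an epithelial galectin of the gut, had a median of 0.401 TPM, and Lgals7, Lgals12 and Grifin were at or near 0 (at most 6, 4 and 1 reads in any mouse). The order changed in the knock-in lines. Lgals1 then made up a median of 72.8% of the summed galectin TPM in H77L mice under DMSO and 73.1% in C118F mice, against 34.6% in controls, and Lgals3 was second in both lines.

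**Figure D1:**
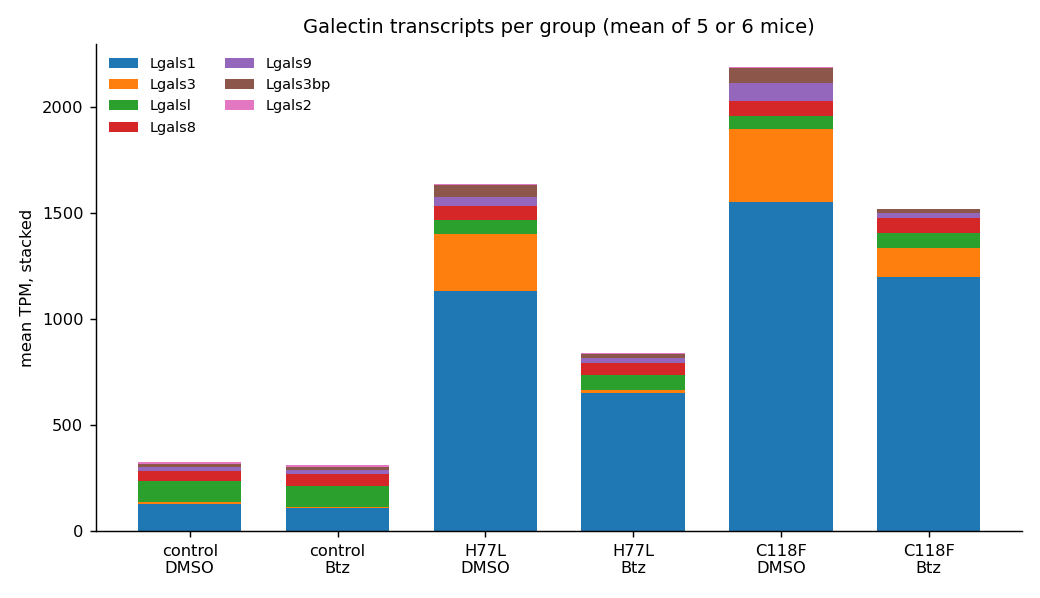
Mean TPM (y axis) of 7 galectin family genes, stacked, in the 6 groups (x axis), each a mean of 5 or 6 mice. The stacks of the control groups consist mainly of Lgals1, Lgalsl and Lgals8, and the taller stacks of the knock-in groups mainly of Lgals1, with a mean of 1133 TPM in H77L and 1550 TPM in C118F mice under DMSO.

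Lgals1 (ENSMUSG00000068220, GRCm39 chr15:78810875-78814670, plus strand) was the most abundant galectin transcript of injured podocytes. Its lowest, median and highest TPM were 77.2, 104 and 276 in the DMSO-treated controls. The corresponding values were 688, 1054 and 1815 in H77L mice. In C118F mice they were 1037, 1531 and 2166. Every knock-in mouse lay above every control mouse, and the control mouse nearest to them, with 276 TPM, was replicate 1, the mouse with the raised leukocyte markers. The ratio of the medians was 10.2 for H77L and 14.8 for C118F, and the log2 fold changes were 3.21 ± 0.27 and 3.69 ± 0.26. The gene overlaps the lncRNA Gm30368 on the other strand, which has no row in the table. The processed pseudogenes Lgals1-ps1 and Lgals1-ps2 have none either, and 1 alignment was kept for a read that mapped to several places, so a share of reads from or to such copies cannot be seen.

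Lgals3 (ENSMUSG00000050335, GRCm39 chr14:47605208-47623624, plus strand) showed the widest differences. DMSO-treated controls had 0, 5.38 and 36.9 TPM as lowest, median and highest value. H77L mice had 43.7, 191 and 849 TPM. C118F mice had 56.6, 372 and 580 TPM. The knock-in groups did not overlap the controls, and mice within a line spread widely. The log2 fold changes were 4.73 ± 0.84 in H77L and 5.40 ± 0.80 in C118F mice. In the controls Lgals3 was highest in mice with RNA of other cells. The 36.9 TPM belonged to control replicate 1 with the leukocyte sum of 560 TPM. The next value of 24.5 TPM belonged to control replicate 2, with a collecting duct sum of 155 and a tubule sum of 1367 TPM. Under bortezomib the highest control value of 11.8 TPM was that of the mouse with a collecting duct sum of 167 and a tubule sum of 373 TPM. The part of those cells in the control level was not tested. Without these 3 mice the control values under DMSO ran from 0 to 5.78 TPM with a median of 3.01, and the log2 fold changes were 5.85 in H77L and 6.53 in C118F mice.

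**Figure D2:**
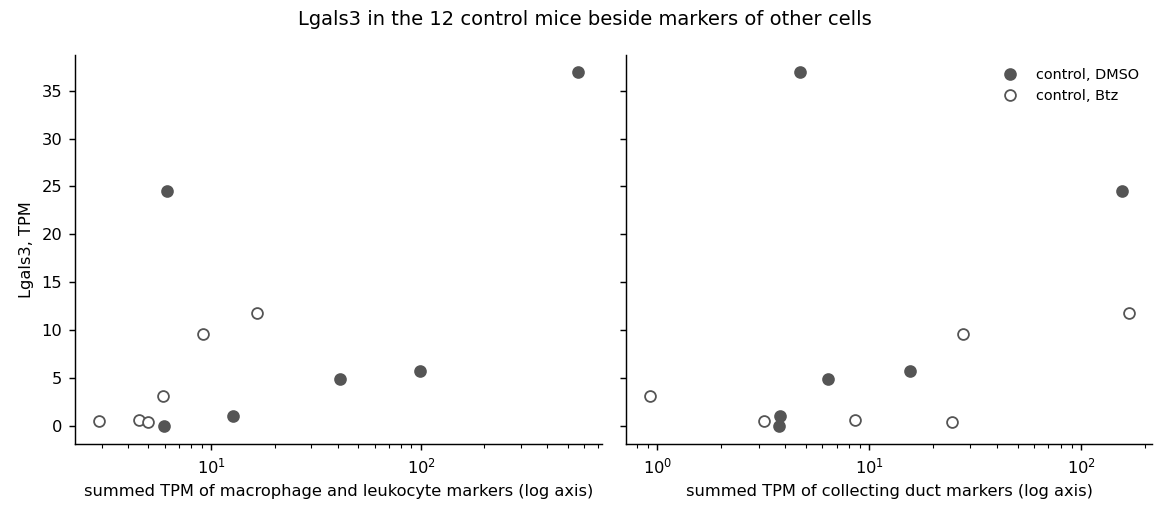
Lgals3 in TPM (y axis) against the summed TPM of macrophage and leukocyte markers (left) and of collecting duct markers (right, log x axes) in the 12 control mice, filled for DMSO and open for bortezomib. The control mice with 36.9, 24.5 and 11.8 TPM of Lgals3 are the ones at the right edge of one or the other panel, with sums of 560, 155 and 167 TPM.

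Markers of other cells in the knock-in mice are set beside their Lgals1 and Lgals3 levels. The leukocyte sum was 12.6 to 38.1 TPM in H77L and 8.48 to 53.1 TPM in C118F mice under DMSO. DMSO-treated controls had 5.96 to 560 TPM, with 98.4 TPM as the second highest sum. Of the 15 leukocyte genes, the T and B cell genes Cd3e and Ms4a1 and the myeloid gene Itgam were at 0 in every mouse of both knock-in groups. They were near the floor in DMSO-treated controls as well, with medians of 0, 0 and 0.0869 TPM, so these zeros do not set the groups apart. Only 2 of the 15 passed the filter in the H77L and 3 in the C118F comparison. Csf1r, the receptor of a macrophage growth factor, was called higher in both lines (log2 fold change 1.23 ± 0.26, adjusted p = 0.00157 in H77L, and 0.81 ± 0.24, adjusted p = 0.0206 in C118F). The lysozyme gene Lyz2 had medians of 12.2 TPM in controls, 0.223 in H77L and 0.452 in C118F mice, and Cd68, a lysosomal macrophage marker, of 1.25, 3.23 and 10.2 TPM. Lyz2 was called lower in C118F mice (log2 fold change -3.0 ± 1.01), where it passed the filter only through the controls. Under bortezomib the leukocyte sum was 9.46 to 45.4 TPM in H77L and 16.9 to 22.7 in C118F mice, against 2.91 to 16.5 in controls. The bortezomib medians of controls, H77L and C118F mice were 0.464, 1.3 and 5.98 TPM for Cd68. They were 2.82, 9.51 and 11.9 TPM for Csf1r and 1.59, 0.592 and 1.19 TPM for Lyz2. There Csf1r was called higher in H77L (1.45 ± 0.26) and C118F mice (1.69 ± 0.26). Cd68 was called higher in C118F mice (1.82 ± 0.4), where it passed the filter only through the knock-in mice. Under DMSO the collecting duct sum was 0.463 to 57.7 TPM in H77L and 0 to 44.2 TPM in C118F mice, against 3.75 to 155 in controls. The sum of 8 mesangial and smooth muscle markers was 38.9 to 128 TPM in DMSO-treated controls, 584 to 958 in H77L and 624 to 2809 in C118F mice. Des, the intermediate filament desmin, and Pdgfrb, a receptor of platelet-derived growth factor, had medians of 478 and 196 TPM in H77L mice, whereas Itga8, a defining mesangial integrin, had a median of 0.136 TPM there and 0.0631 TPM in C118F mice. The 2809 TPM belonged to C118F replicate 1, in which Ren1, the renin gene of juxtaglomerular cells, made up 2166 TPM, against at most 34.7 in the other mice of its group. Without the 3 knock-in mice with markers of other cells (H77L replicate 5 and C118F replicates 1 and 4), the log2 fold changes from controls under DMSO were 3.35 in H77L and 3.59 in C118F mice for Lgals1, and 5.12 and 5.15 for Lgals3. The part of such cells in the galectin levels was not tested.

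Lgals8 (ENSMUSG00000057554, GRCm39 chr13:12454282-12479840, minus strand) differed least. Lowest, median and highest TPM were 40.5, 50.5 and 54.6 in DMSO-treated controls. They were 60.5, 66.8 and 80.5 in H77L mice. They were 57.5, 61 and 92.6 in C118F mice. The ranges were close but did not overlap, and the log2 fold changes were 0.45 ± 0.09 and 0.47 ± 0.14. The C118F difference was 0.40 without the 3 control mice and 0.25 once mouse number entered as a covariate. Lgals8 overlaps Heatr1 on the opposite strand, and no strand setting is given for the counting, so reads from their shared stretch cannot be told apart.

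Lgals9 (ENSMUSG00000001123, GRCm39 chr11:78853800-78875798, minus strand) had 12, 18.8 and 26.1 TPM as lowest, median and highest value in DMSO-treated controls. H77L mice had 22, 43.6 and 74.7 TPM. C118F mice had 39.3, 76.4 and 168 TPM. Only 1 mouse, the lowest of the H77L group, lay within the control range. The log2 fold changes were 1.14 ± 0.26 in H77L and 2.03 ± 0.32 in C118F mice. With mouse number as covariate, the H77L difference was 0.87. The C118F mouse with 168 TPM was replicate 1, and without the 3 knock-in mice the differences were 1.31 and 1.98.

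Lgals3bp (ENSMUSG00000033880, GRCm39 chr11:118280716-118292918, minus strand) went with it. DMSO-treated controls had 9.47, 14.3 and 18.2 TPM. H77L mice had 20, 48 and 115 TPM. C118F mice had 35, 71.7 and 108 TPM. No knock-in mouse overlapped the controls, and the log2 fold changes were 1.61 ± 0.37 and 2.14 ± 0.27. Within the H77L group the same mouse, replicate 6, had the highest value of all 5 genes, with 1815 TPM of Lgals1, 849 of Lgals3, 80.5 of Lgals8, 74.7 of Lgals9 and 115 of Lgals3bp. Replicate 5 of that group had the lowest Lgals1, Lgals3 and Lgals9 with 688, 43.7 and 22 TPM.

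**Figure D3:**
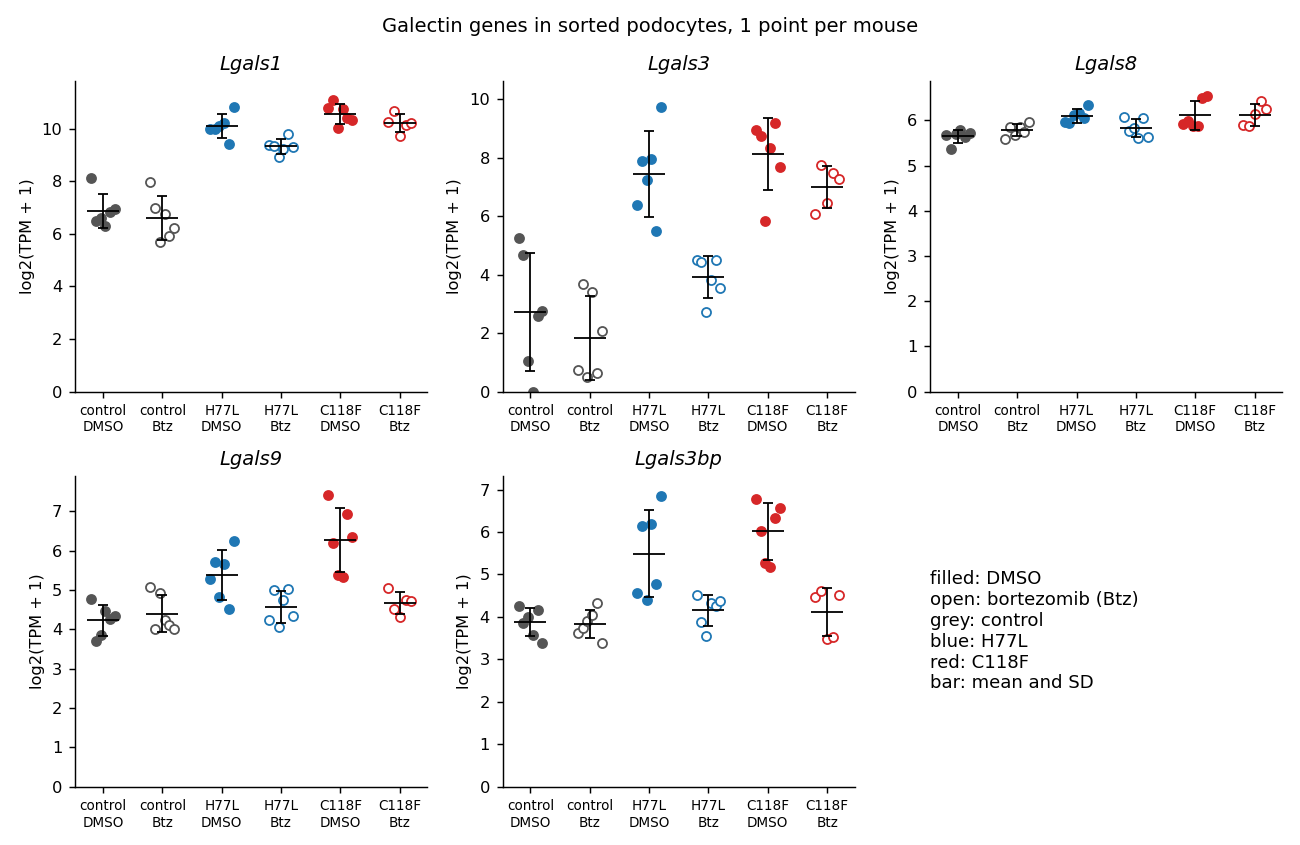
Level of each gene as log2(TPM + 1) (y axis) in the 6 groups (x axis), with 1 point per mouse, filled for DMSO and open for bortezomib. The horizontal bar is the mean and the whiskers are the SD. Under DMSO the knock-in points of Lgals1, Lgals3, Lgals8 and Lgals3bp lie above all control points, and under bortezomib the Lgals9 and Lgals3bp points of all lines overlap the controls.

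Those 2 comparisons chose the genes, and nothing is read from their counts. All 5 were called higher in each line, where 44.8% of 10964 genes were called in H77L mice and 30.4% of 10899 genes in C118F mice in either direction. The study's stricter cutoffs of an adjusted p under 0.001 and a log2 fold change above 2 were passed upward by 2 members in H77L (Lgals1 and Lgals3; 1.62% of all genes) and by 4 in C118F mice (all except Lgals8; 1.63% of all genes). The study set these cutoffs on DESeq2 results with shrunken fold changes. Here they were set on the limma fits, so these counts are not the study's own. Every knock-in mouse lay above every control mouse for 4 members in H77L (11.0% of genes) and for 5 in C118F mice (6.48% of genes). Around the cutoff of 2, Lgals9 and Lgals3bp of C118F mice lay just above, with 2.03 and 2.14, and Lgals3bp of H77L mice was the nearest below, with 1.61.

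The bortezomib-treated mice are other animals than those whose values chose the genes, but earlier results of these data were known. From the RNA of these same mice, the study grouped galectin-3 with genes that rose in both lines. In that group bortezomib prevented the rise in H77L mice only. Staining for galectin-3 protein gave the same pattern in the study. The Lgals3 values of the bortezomib-treated mice are therefore no fresh test. Among the bortezomib-treated mice Lgals1 was higher than in controls in both lines, and Lgals8 narrowly so in C118F mice. In H77L mice Lgals1 and Lgals3 were called (2 of 5 members, against 23.6% of 10805 genes in either direction). In C118F mice Lgals1, Lgals3 and Lgals8 were called (3 of 5, against 27.5% of 10916 genes). Lgals3 passed the filter only through the knock-in mice, so its calls are not counted as support, and without the filter the members called were Lgals1 and Lgals3 in each line. The study's cutoffs were passed by Lgals1 alone in H77L mice (0.925% of genes) and by Lgals1 and Lgals3 in C118F mice (1.52% of genes). Every knock-in mouse exceeded every control mouse for Lgals1 in H77L (6.80% of genes) and for Lgals1 and Lgals3 in C118F mice (9.01% of genes). The median log2 fold change of the 5 members was 0.32 in H77L and 0.34 in C118F mice, beside -0.01 and 0.0 over all genes.

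Lgals1 under bortezomib was 50.8, 90.6 and 252 TPM in controls as lowest, median and highest value. It was 486, 638 and 891 TPM in H77L mice. The 5 C118F mice had 838, 1121, 1178, 1225 and 1629 TPM. Both knock-in groups lay above all controls, with log2 fold changes of 2.74 ± 0.30 (adjusted p = 4.59e-06) and 3.61 ± 0.33 (adjusted p = 1.81e-06).

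Lgals3 separated the lines under bortezomib. Controls had 0.421, 1.94 and 11.8 TPM. H77L mice had 5.66, 16.9 and 21.9 TPM, with 4 of 6 mice above every control. The 5 C118F mice had 66.1, 85.8, 152, 177 and 213 TPM and lay above every control and every H77L mouse. Against controls the log2 fold change was 2.08 ± 0.53 in H77L and 5.16 ± 0.57 in C118F mice. In the fit without a filter on low values, which does not depend on the knock-in level, the adjusted p was 0.0441 and 0.000286. Without control replicate 2 the fold changes were 2.45 and 5.52. Between the lines the difference was 3.07 ± 0.35 (adjusted p = 0.00116), with medians in a ratio of 9. Lgals1 also differed between the lines, by 0.87 ± 0.16 (adjusted p = 0.0213), with 4 of 5 C118F mice above all H77L mice. These were the members called among 0.972% of 10803 genes. Both calls rest on the fit of these 2 groups. With all 35 mice in 1 fit, which shares the wider spread of the other groups, the adjusted p was 0.0729 for Lgals3 and 0.233 for Lgals1. Leaving out replicate 4 of the C118F mice, or replicate 2, 4 or 6 of the H77L mice, took the adjusted p of Lgals1 to 0.0506 to 0.0580.

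Lgals9 and Lgals3bp did not differ detectably from controls under bortezomib. Lgals9 was 15.2, 17 and 32.8 TPM in controls and 15.8, 22.6 and 31.8 TPM in H77L mice. The 5 C118F mice had 19, 22, 25.2, 25.9 and 32.4 TPM, all within the control range. The log2 differences from controls were 0.17 (95% interval -0.30 to 0.64) in H77L and 0.28 (-0.18 to 0.74) in C118F mice. Lgals3bp was 9.43, 13.1 and 19.2 TPM in controls and 10.7, 18.6 and 22 TPM in H77L mice. The 5 C118F mice had 10.1, 10.6, 21.2, 21.7 and 23.3 TPM. The intervals were -0.07 to 0.71 in H77L and -0.23 to 0.80 in C118F mice, with adjusted p = 0.242 and 0.415.

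Lgals8 under bortezomib was 47.4, 54.7 and 61.3 TPM in controls and 48, 54.6 and 66.9 TPM in H77L mice, with a log2 difference of 0.05 (95% interval -0.17 to 0.27). The 5 C118F mice had 57.9, 58.4, 69.8, 75.1 and 85.7 TPM, and their difference of 0.34 ± 0.12 was called narrowly (adjusted p = 0.0473). The call was lost when any of 8 single mice was left out (C118F replicates 3, 4 and 5 and control replicates 1 to 5) and with mouse number as covariate, where the difference was 0.09.

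**Figure D4:**
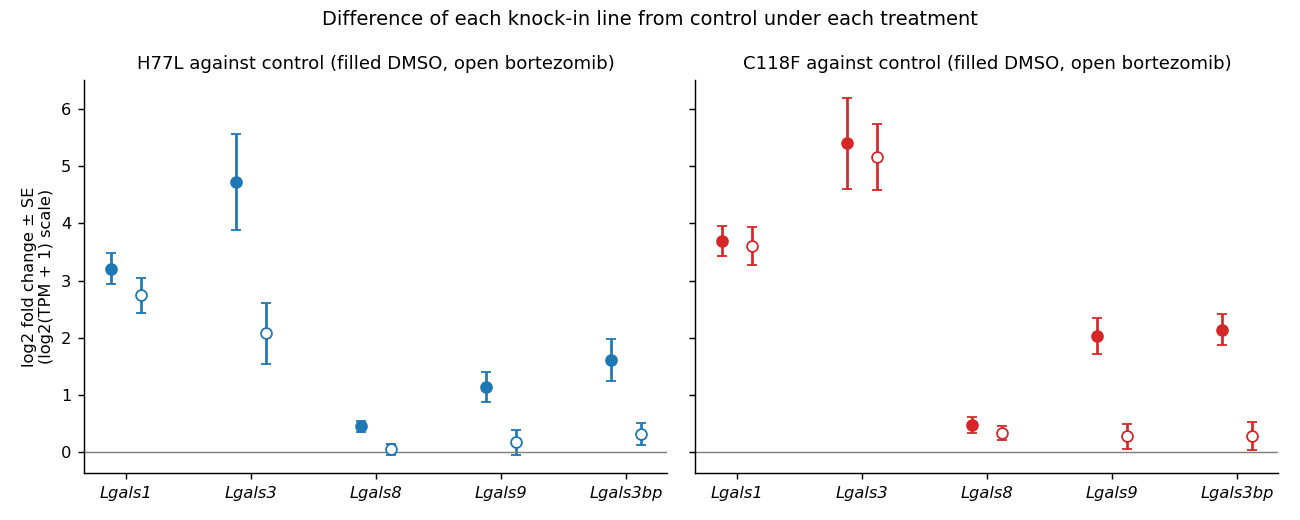
Difference of H77L (left) and C118F (right) mice from controls as log2 fold change (y axis) with the standard error as whiskers, for the 5 genes (x axis), filled under DMSO and open under bortezomib. Lgals1 stays near its DMSO value in both lines, and Lgals9 and Lgals3bp are close to 0 under bortezomib. The Lgals3 difference is 5.40 and 5.16 in C118F mice, and 4.73 and 2.08 in H77L mice. The similar C118F differences do not mean an equal level. The C118F median of Lgals3 was 372 TPM under DMSO and 152 under bortezomib, and the control median 5.38 and 1.94 TPM.

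Bortezomib was then compared with DMSO within each line. The DMSO-treated knock-in mice enter these comparisons too, and their high values had a part in choosing the genes. That choice favours a fall under bortezomib in both knock-in lines. The values and calls of members in these lines are therefore a description and are not counted as support. In controls no member was called (0.0% of 10659 genes called by limma, 923 genes with an unadjusted p under 0.05, none of them a member). Lgals1 differed by -0.28 ± 0.36, and Lgals3 did not pass the filter. In H77L mice Lgals3 fell by 3.52 ± 0.55 on the log2 scale (adjusted p = 0.0184), and all 6 bortezomib-treated mice lay below all 6 DMSO-treated mice. It was 1 of 5 members called, among 1.16% of 10813 genes called in either direction, and the share of genes without overlap in the downward direction was also 1.16%. The median fell from 191 to 16.9 TPM, a ratio of 11.3. The adjusted p of Lgals3 ranged from 0.00632 to 0.0925 over 21 fits and passed 0.05 when replicate 2, 3, 4 or 6 of the bortezomib group was left out (0.0508 to 0.0769), without the filter (0.0925) and with voom on recovered reads (0.0670), while its log2 difference kept to between -3.91 and -3.06. The other members were lower on average without being called. Lgals1 differed by -0.76 ± 0.19 (adjusted p = 0.0593), Lgals3bp by -1.34 ± 0.37 (adjusted p = 0.078), Lgals9 by -0.80 ± 0.26 (adjusted p = 0.108) and Lgals8 by -0.26 ± 0.10 (adjusted p = 0.164). Lgals1 was called without DMSO replicate 5 (adjusted p = 0.0228) and with mouse number as covariate (0.0441), and Lgals3bp with all 35 mice in 1 fit (0.0475).

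In C118F mice limma called no gene between bortezomib and DMSO (0.0% of 10814, with 634 genes at an unadjusted p under 0.05), and hence no member. By values, all 5 bortezomib-treated mice lay below all 6 DMSO-treated mice for Lgals9 and for Lgals3bp (0.222% of the genes tested). The genes were chosen for high values in these same DMSO-treated mice, which favours such a fall. The values below are therefore a description and are not counted as support. Lgals3bp had medians of 21.2 and 71.7 TPM and a log2 difference of -1.90 ± 0.32 (unadjusted p = 4.49e-05, adjusted p = 0.164 by limma). Lgals9 had medians of 25.2 and 76.4 TPM and a difference of -1.59 ± 0.33 (unadjusted p = 0.000281, adjusted p = 0.4 by limma). With all 35 mice in 1 fit the adjusted p was 0.00899 for Lgals3bp and 0.0136 for Lgals9. Lgals3 overlapped between the treatments, with medians of 152 and 372 TPM and a difference of -1.12 ± 0.52 (adjusted p = 0.813), and Lgals1 and Lgals8 differed by -0.36 ± 0.20 and 0.01 ± 0.16.

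The difference between the bortezomib responses of the lines was tested as an interaction, in which no gene was called (0.0% of 11046 by limma, 840 at an unadjusted p under 0.05). The response of Lgals3 was lower in H77L than in C118F mice by 2.40 ± 0.83 on the log2 scale (95% interval of the difference -4.10 to -0.69, unadjusted p = 0.00793, adjusted p = 0.65 by limma). The responses of the other 4 members differed by -0.40 to 0.79, with adjusted p between 0.651 and 0.751. Hence the lines were not shown to respond differently. Under DMSO the lines did not differ in any member by adjusted p (0.0% of 10809 genes called by limma, 416 at an unadjusted p under 0.05). C118F mice had the higher mean for each of the 5, by 0.89 ± 0.36 for Lgals9, 0.68 ± 0.66 for Lgals3, 0.53 ± 0.43 for Lgals3bp, 0.47 ± 0.22 for Lgals1 and 0.02 ± 0.14 for Lgals8, all with an adjusted p of at least 0.931. Both groups had a part in choosing the genes, so these means are a description. No difference between the lines is read from them.

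The genes followed above were chosen for their higher TPM in the knock-in lines under DMSO. A lack of such a rise in the rest of the family is therefore set by that choice, and nothing is read from it. Of the 6 other family genes in the table, Lgalsl and Lgals2 passed the filter. The others did not, so a rise in those was not tested. Lgalsl was lower in the knock-in lines, with medians of 64.5 TPM in H77L and 63 TPM in C118F mice against 100 TPM in controls under DMSO (log2 fold changes -0.54 ± 0.13, adjusted p = 0.0032, and -0.59 ± 0.13, adjusted p = 0.00291). It was also called lower in both lines under bortezomib, by -0.49 ± 0.11 (adjusted p = 0.00511) and -0.53 ± 0.16 (adjusted p = 0.0227). Lgals2, an epithelial galectin, was covered by 0 to 61 reads per mouse. Its medians under DMSO were 6.78 TPM in controls, 4.23 in H77L and 1.46 in C118F mice, and under bortezomib 10.5, 2.95 and 1.4 TPM. Except in H77L mice under DMSO it passed the filter only through the control group, so its differences are given without a test.

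For each member the 5 genes whose levels were most alike (4 of them given for Lgals3) were taken from 11306 genes by Pearson's r on log2(TPM + 1) over the 35 mice. These points share the group differences, library depth and the makeup of each sort, so r is a description, and r after subtraction of the group means is given beside it. Lgals1 was most like Glipr2 (r = 0.977, within groups 0.85), Rab31 (0.966, 0.63), Mcam (0.963, 0.74), the tetraspanin gene Cd63 (0.963, 0.52) and Entrep1 (0.962, 0.55). Lgals3 was most like the caveolin gene Cav2 (0.972, 0.87), Phlda3 (0.945, 0.77), Capg (0.933, 0.75) and Cpe (0.929, 0.74). Cav2 had the same order of groups as Lgals3, with medians of 7.15 TPM in controls, 60.3 in H77L and 98.4 in C118F mice under DMSO, and of 5.54, 14.3 and 36.6 TPM under bortezomib. Its 2 highest control values of 19.2 and 17 TPM came from control replicates 1 and 2 under DMSO, which also had the highest control Lgals3. Lgals8 was most like the metalloprotease gene Adam9 (0.887, 0.81), Efr3a (0.871, 0.79), Ext1 (0.864, 0.76), Ostm1 (0.864, 0.75) and Rhoq (0.859, 0.77).

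Lgals9 stood beside interferon-induced genes, and Lgals3bp had 1 of them, Irf7, as the last of its 5. The 5 genes most like Lgals9 were Irf7, an interferon-induced transcription factor (r = 0.907, within groups 0.74), Tapbp of the antigen-loading complex (0.902, 0.68), Ifit1 (0.886, 0.77), Bst2 (0.878, 0.78) and the guanylate-binding protein gene Gbp2 (0.873, 0.71). Those most like Lgals3bp were Slco3a1 (0.866, 0.69), Lgals9 itself (0.864, 0.61), Adamts7 (0.863, 0.75), Tmx1 (0.861, 0.73) and Irf7 (0.860, 0.63). Irf7 was at 28.4 TPM in C118F replicates 1 and 5 under DMSO, which had the highest Lgals9 of all mice with 168 and 120 TPM. Those mice also had the highest sums of 24 interferon-induced genes, 5099 and 3595 TPM, against 295 to 390 TPM in DMSO-treated controls. Among the 17 of these genes tested, 9 were called higher in H77L and 15 in C118F mice under DMSO, with none lower (44.8% and 30.4% of all genes called in either direction), and 4 of 15 and 2 of 13 under bortezomib (23.6% and 27.5% of all genes). Their median log2 fold change was 0.69 in H77L and 1.62 in C118F mice under DMSO, beside -0.01 and -0.06 over all genes. Between members, r within groups was highest for Lgals9 with Lgals3bp (0.61) and Lgals1 with Lgals3 (0.57), and was -0.02 for Lgals1 with Lgals8.

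**Figure D5:**
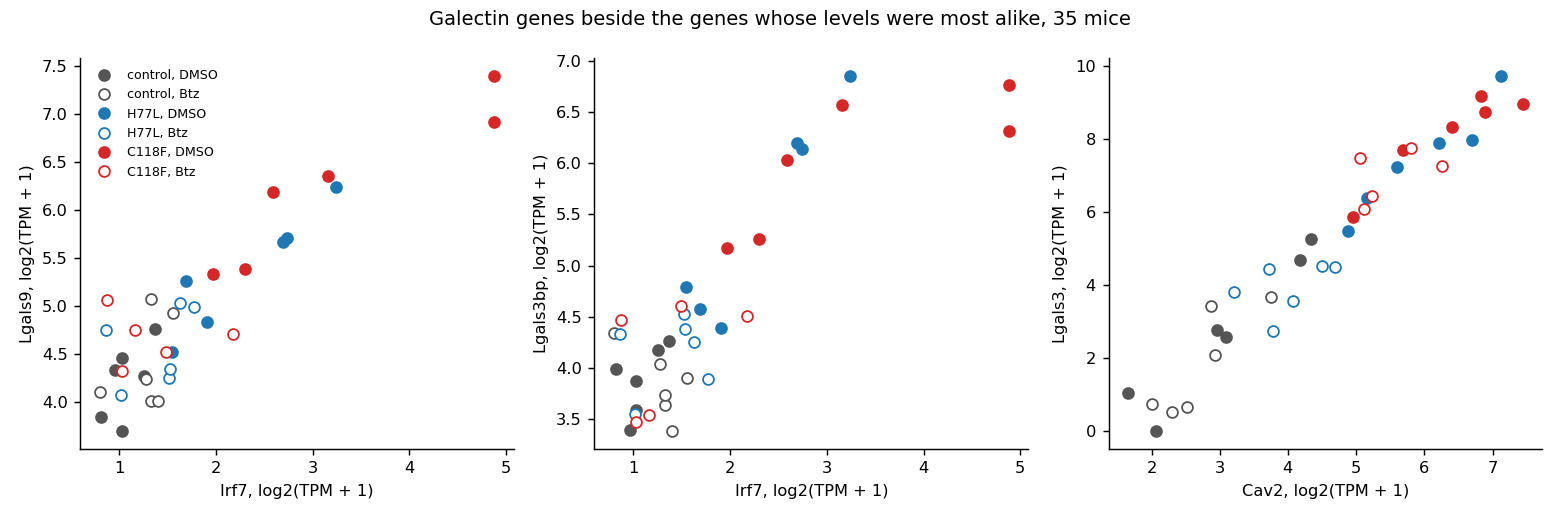
Lgals9 and Lgals3bp against Irf7, and Lgals3 against Cav2, all as log2(TPM + 1), with 1 point for each of 35 mice, filled for DMSO and open for bortezomib. The 2 C118F mice at the right of the Irf7 panels have 28.4 TPM of Irf7, and in the Cav2 panel controls, H77L mice and C118F mice follow each other from lower left to upper right with overlap.

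Promoter windows of 250 bases before to 50 bases after the start were taken from RefSeq (GRCm38.p6, a build other than that of the counts) for 4 of the 5 genes, Lgals3, Lgals8, Lgals9 and Lgals3bp. They were searched on both strands for the interferon-stimulated response element (a pair of GAAA runs, or TTTC on the other strand, with 2 bases between them), the AP-1 site TGANTCA and the homeodomain core TAATTA. Of 32851 windows, 3.44% held the first, 7.81% the second and 5.29% the third. The Lgals9 window held the interferon-stimulated response element in 2 places, starting at base -55 and at base 16 counted from the start, and the other 3 windows held none of the motifs. The window of Lgals3bp was then read, and a pair of GAAA runs was seen at a spacing of 3 bases in place of 2. This wider form was searched after it had been seen, and it was held by 2.75% of all windows. Both upstream stretches are shown since Irf7 was among the 5 genes most like each of these members, with the matches in capitals. No match of the listed letters says nothing about the binding of a factor, and a match is no proof of a used site. The first is Lgals9, chr11:78984925-78985174, minus strand, followed by 30 bases that begin at base 6 after its start, chr11:78984890-78984919, and the third is Lgals3bp, chr11:118401960-118402209, minus strand.
Lgals9 upstream: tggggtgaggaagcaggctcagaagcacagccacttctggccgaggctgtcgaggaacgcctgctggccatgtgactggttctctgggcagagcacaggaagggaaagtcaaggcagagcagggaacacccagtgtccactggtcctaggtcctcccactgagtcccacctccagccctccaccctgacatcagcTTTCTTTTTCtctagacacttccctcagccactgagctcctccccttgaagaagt
Lgals9 after the start: atagctgtggTTTCTGTTTCctagctcagc
Lgals3bp upstream: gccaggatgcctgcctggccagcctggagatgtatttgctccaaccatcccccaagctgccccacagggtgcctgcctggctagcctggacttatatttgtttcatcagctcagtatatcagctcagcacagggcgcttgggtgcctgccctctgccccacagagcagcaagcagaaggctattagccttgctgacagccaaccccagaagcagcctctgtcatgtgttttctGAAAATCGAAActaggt

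Genes that make or carry the glycans bound by galectins moved in both directions. Of 15 enzymes of N-glycan branching and of N-acetyllactosamine chains tested under DMSO, 4 were called higher and 5 lower in H77L, and 2 higher and 5 lower in C118F mice (44.8% and 30.4% of all genes called in either direction), with medians of -0.07 and 0.02 beside -0.01 and -0.06 over all genes. The branching enzyme Mgat5, whose product carries the chains galectin-3 prefers, was lower, with medians of 61.7 TPM in H77L and 62.9 TPM in C118F mice against 134 TPM in controls (log2 fold changes -1.08 ± 0.13, adjusted p = 1.78e-05, and -1.21 ± 0.21, adjusted p = 0.000686). Mgat4a, which starts another branch, was lower too, at 43 and 34.9 TPM against 135 TPM (-1.61 ± 0.10 and -1.94 ± 0.16), as was Man1a2, a mannosidase that trims N-glycans before branching (-0.66 ± 0.11 and -0.84 ± 0.17).

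Of the sialyltransferases and O-glycan core enzymes, 5 of 10 were called higher and 3 lower in H77L, and 3 of 9 higher and 3 lower in C118F mice (44.8% and 30.4% of all genes called), with medians of 0.23 and 0.08. St3gal1, which caps O-glycans with sialic acid, was lower, with a median of 7.71 TPM in H77L and 9.71 TPM in C118F mice against 22 TPM in controls (-1.29 ± 0.17, adjusted p = 3.11e-05, and -1.05 ± 0.12, adjusted p = 1.51e-05). St3gal6 was lower by -0.55 ± 0.10 and -0.60 ± 0.10, and C1galt1, which makes the core on which O-glycans are built, was higher by 0.72 ± 0.12 and 0.63 ± 0.17.

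Of 19 surface and matrix glycoproteins known to bind galectins, 10 were called higher and 3 lower in H77L, and 9 higher and 2 lower in C118F mice (44.8% and 30.4% of all genes called), with medians of 0.45 and 0.49. Itgb1, the integrin beta-1 chain, had medians of 5168 and 5073 TPM against 1941 TPM in controls (1.40 ± 0.11, adjusted p = 3.23e-07, and 1.31 ± 0.17, adjusted p = 4.44e-05). Itga5, the fibronectin receptor chain, was higher by 2.51 ± 0.26 and 2.86 ± 0.33. Under bortezomib its difference from controls was 0.74 ± 0.13 in H77L and 2.01 ± 0.23 in C118F mice, an order of the lines like that of Lgals3. Mcam, an adhesion molecule of the immunoglobulin family, was higher by 2.97 ± 0.40 and 2.90 ± 0.41, and by 2.81 ± 0.26 and 3.37 ± 0.25 under bortezomib. Like Lgals3, it passed the filter only through the knock-in mice, so its rise was bound to the filter and is a description.

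Genes of the response to damaged lysosomes and of autophagy, in which galectin-3 and galectin-8 take part, were called in both directions. Of 33 tested, 12 were higher and 5 lower in H77L (44.8% of all genes called in either direction), and of 32 tested, 7 were higher and 2 lower in C118F mice (30.4% of all genes), with medians of 0.05 and 0.07. Tfe3, a transcription factor of lysosomal genes, was higher by 0.77 ± 0.13 (adjusted p = 0.000352) and 0.79 ± 0.17 (adjusted p = 0.00248), and Gabarapl1, an autophagosome protein, by 0.48 ± 0.11 and 0.63 ± 0.12. Ube2ql1, a ubiquitin-conjugating enzyme that acts on damaged lysosomes, was lower, with medians of 4.06 and 5.52 TPM against 38.4 TPM in controls (-2.99 ± 0.31, adjusted p = 3.67e-06, and -2.56 ± 0.26, adjusted p = 4.64e-06). Between bortezomib and DMSO no gene at all was called in C118F mice (0.0% of 10814), which says nothing about these lists. In H77L mice 1.16% of 10813 genes were called in either direction. None was from the glycan enzyme lists or this list, and 2 of 19 galectin-binding genes were called lower. At so low a share no result about the lists is read from a lack of calls.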

How the data were processed

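Podocyte RNA of 35 mice was analysed from 1 table of TPM that the authors deposited. The authors made poly(A) libraries with a SMART-Seq kit, sequenced them from 1 end, trimmed reads with Trim Galore 0.6.7, used STAR for the alignment to GRCm39 and obtained gene counts by featureCounts 1.6.3. The step from counts to TPM and the strand setting are not given in the sources used here, and no removal of duplicates is stated. All columns were used, and no 2 libraries were identical. Groups came from the sample titles, whose mouse numbers are not shared between groups.

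The 5 genes and all gene lists were chosen with earlier results of these data known. Values were analysed as log2(TPM + 1) with limma 3.58.1 (lmFit and eBayes with an intensity trend, R 4.3.3). Each of 10 comparisons used the mice of its groups, genes above 1 TPM in every mouse of at least 1 group, and Benjamini-Hochberg adjustment over all of them. The rule for other named genes took, from each list, the 3 best-ranked genes called in both lines under DMSO. The fit was tested on simulated data. Depth was estimated from the steps of TPM values, which gave whole reads for 99.9% of the 23943 genes above 0 in at least 1 mouse. Of the identifiers, 32776 were found in GENCODE vM39, from which symbols and positions were taken. Reads amplified by PCR do not stand for separate molecules, so errors are the spread over mice, and read counts carry no interval. Alternatives were another pseudocount (0.1), no filter, median-of-ratios scaling, all mice in 1 fit, the mouse number as covariate, no trend, sample weights, each mouse left out, and, chosen after seeing the data, voom on recovered reads and leaving out 3 control or 3 knock-in mice. No alternative scaling moved the median of all genes by over 0.1. Results on some genes are not reported here.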

Additional observations from a re-analysis of the deposited data

Results flagged for a closer look

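In 1 of 30 combinations of a gene and a group, a mouse stood farther from the others than Dixon's 95% limit (0.625 for 6 mice and 0.71 for 5, on the log2 scale), a limit that chance passes in about 1 of 20 groups. Lgals1 was at 276 TPM in control replicate 1 under DMSO, where the other 5 mice had 77.2 to 121 TPM. This mouse also had the highest Lgals3 of the controls, 36.9 TPM, and a macrophage and leukocyte marker sum of 560 TPM. Their part in the Lgals1 level was not tested.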

How the results depend on the processing

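Over all alternatives, no fold change of a member that was called or described against controls under DMSO changed sign. Against controls under DMSO the number of members called stayed at 5 or 4 in each line, apart from the study's cutoffs, which 2 members passed in H77L mice, and under bortezomib in H77L mice 1 passed them in place of 2. For bortezomib against DMSO in H77L mice, the 1 member called became 0 without the filter and with voom on recovered reads, 2 with all 35 mice in 1 fit and 2 with mouse number as covariate, and 0 to 2 when single mice were left out. In C118F mice the 0 members called became 2 with all 35 mice in 1 fit. Between the lines under bortezomib the 2 members called became 1 without the filter, 1 without the trend and 0 with all 35 mice in 1 fit, and 1 to 2 when single mice were left out. Counts over all genes moved as well. Bortezomib against DMSO in H77L mice gave 45 genes higher and 80 lower, 27 and 97 with median-of-ratios scaling, 12 and 46 with all mice, 74 and 111 with sample weights, 18 and 36 with voom, 4 and 15 without the trend, and 0 without the filter. C118F against H77L mice under bortezomib gave 77 higher and 28 lower, 9 and 4 without the filter, 25 and 5 with all mice, 18 and 6 with the covariate, 41 and 10 without the trend, and 245 and 103 with sample weights. The causes were not tested. No paired analysis was possible because the mouse numbers in the labels are not shared between groups. Depth limits Lgals3 in controls, where 1 mouse had 0 reads, and Lgals2.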
